A study of Rattus norvegicus with 6 samples.

Results

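Sox9, Sox4, Hes1, Neurog3, Aldh1a3 and Lmo4 are genes of pancreatic progenitors or of beta cells that lose their mature state, and they were picked by symbol from the table of gene expression in INS-1E cells. Of these 6 genes, 3 had a row among the 19289 listed features, Sox9, Hes1 and Lmo4, and all 3 were among the 12460 features tested; Sox4, Neurog3 and Aldh1a3 were not analysed here. INS-1E is a clonal line from a rat insulinoma that secretes insulin. The comparison was of 3 libraries of INS-1E cells treated with uric acid for 24 hours with 3 libraries of untreated INS-1E cells, to ask which transcripts differ when uric acid is present. The labels used here give no uric acid dose, and for the untreated cells they give no vehicle and no time. They do not say whether the libraries of a group came from separate cultures. The p-values thus speak of the spread among these libraries alone.

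In the developing mouse pancreas, SOX9 keeps multipotent progenitors and later duct cells in their state, and Notch receptors cut at the membrane release a fragment that joins the DNA-binding protein RBPJ and switches on HES1. HES1 is a repressor that holds down Neurog3, the factor that commits a progenitor to the endocrine fate, and SOX4 acts beside NEUROG3 in that step. ALDH1A3, an enzyme that makes retinoic acid, marks beta cells that have lost identity in diabetic mice, and LMO4 is an adaptor of LIM domains alone that binds LDB1, the scaffold that LIM-homeodomain factors such as ISL1 use.

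The promoters of Hes1 and Lmo4 are shown because Hes1 is the Notch target gene of the set and Lmo4 is the gene that was higher with uric acid; both are RefSeq sequence of the build GRCr8, from 250 bases before to 50 bases after the annotated start, written 5′ to 3′ on the strand of the gene. Capitals in the Hes1 promoter (chr11:84212996-84213295, minus strand) mark matches on either strand to TGGGAA, the core of the RBPJ site, to CACNAG, the N-box that HES proteins bind, and to CCAAT. Capitals in the Lmo4 promoter (chr2:235941226-235941525, minus strand) mark matches to GGGCGG, the GC box.
Hes1: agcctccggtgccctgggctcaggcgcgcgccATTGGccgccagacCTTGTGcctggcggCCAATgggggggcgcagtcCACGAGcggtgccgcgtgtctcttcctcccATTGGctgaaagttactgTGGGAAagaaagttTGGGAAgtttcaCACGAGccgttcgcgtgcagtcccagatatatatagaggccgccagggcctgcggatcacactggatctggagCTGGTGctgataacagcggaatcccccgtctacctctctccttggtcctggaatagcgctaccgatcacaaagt
Lmo4: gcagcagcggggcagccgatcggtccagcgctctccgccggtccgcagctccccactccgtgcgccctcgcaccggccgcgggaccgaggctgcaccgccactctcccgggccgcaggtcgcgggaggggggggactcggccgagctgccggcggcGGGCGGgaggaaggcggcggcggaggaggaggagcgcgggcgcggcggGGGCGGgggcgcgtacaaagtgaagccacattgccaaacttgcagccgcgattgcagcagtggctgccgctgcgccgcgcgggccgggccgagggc
The Hes1 sequence held 2 RBPJ cores in the same direction, beginning 123 and 109 bases before the start, where 25.7% of 33469 rat promoters of this length held at least 1 and 3.85% held at least 2. It also held 4 N-boxes, beginning 204, 171, 97 and 24 bases before the start. That number was reached by 0.353% of promoters, and 43.1% held at least 1. There were 3 CCAAT boxes as well, where 37.5% of promoters held at least 1 and 3.02% held at least 3. None of these matches overlapped another. The Lmo4 sequence held no match to these motifs. Of the other motifs searched on both strands, TATATA matched the Hes1 sequence at 2 overlapping positions, 70 and 68 bases before the start. At least 1 match to TATATA was held by 6.15% of promoters and at least 2 by 1.38%. TATATA did not match the Lmo4 sequence, and CANNTG (72.1% of promoters), ACAATG (13.2%) and TGATGNAA (3.98%) matched neither sequence. The Lmo4 sequence was 78.3% G or C, against 60.3% for Hes1. The Lmo4 sequence held 2 GC boxes, where 33.1% of promoters held at least 1 and 17.0% held at least 2. The Hes1 sequence did not hold a GC box. No listed feature overlapped Sox9, Hes1 or Lmo4 in the deposited coordinates. These place Sox9 (ENSRNOG00000002607) on the plus strand of chromosome 10 from 101288489 to 101293379, Hes1 (ENSRNOG00000001720) on the minus strand of chromosome 11 from 74312806 to 74315248, and Lmo4 (ENSRNOG00000009205) on the minus strand of chromosome 2 from 250218641 to 250241673. The sources used here do not give the build of these deposited positions.

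The libraries held 41191819 to 48875962 estimated counts with uric acid and 47858248 to 59092982 untreated, a full pair of reads adding up to 4. All 21 beta cell markers with a row passed the expression filter. Ins1, an insulin gene, stood at 51282, 55064 and 43003 FPKM (fragments scaled to transcript length and to the library total) with uric acid and at 44093, 47936 and 54102 FPKM untreated. Markers of most other cells were low. The 3 leukocyte genes summed to 0.419 to 0.564 FPKM with uric acid and 0.28 to 0.648 FPKM untreated, and the 3 endothelial genes to 0.192 to 0.359 FPKM with uric acid and 0.268 to 0.38 FPKM untreated. The 2 delta, PP and epsilon genes summed to 0.335 to 0.587 FPKM with uric acid and 0.0925 to 0.546 FPKM untreated. The 5 acinar genes summed to 8.77 to 14.0 FPKM with uric acid and 9.2 to 11.3 FPKM untreated, and the 3 alpha cell genes to 17.0 to 18.7 FPKM with uric acid and 18.2 to 19.0 FPKM untreated.

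Sox9 fell with uric acid, Lmo4 rose, and Hes1 did not pass the test. With uric acid, Sox9 stood at 0.967, 0.735 and 0.901 FPKM in libraries 1, 2 and 3, against 1.74, 1.73 and 2.01 FPKM in the untreated libraries. Every uric acid library was below every untreated library. Lmo4 stood at 9.92, 11.5 and 9.19 FPKM with uric acid, against 5.88, 6.11 and 6.51 FPKM untreated. Here every uric acid library was above every untreated one, and uric acid library 2 held both the highest Lmo4 and the lowest Sox9 level. Hes1 stood at 8.32, 10.2 and 6.35 FPKM with uric acid and at 7.54, 9.91 and 11.4 FPKM untreated. The groups of Hes1 overlapped, with the lowest value in uric acid library 3 and the highest in untreated library 3.

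**Figure D1:**
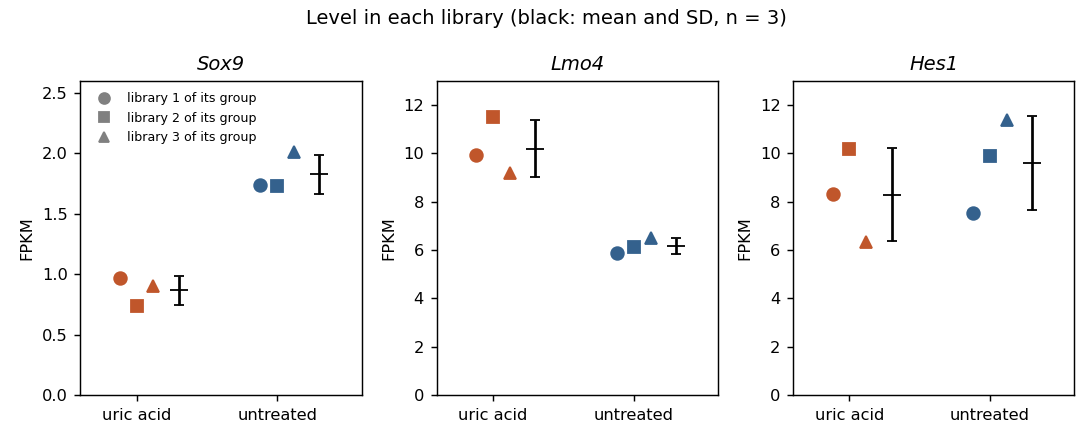
Level of Sox9, Lmo4 and Hes1 in FPKM (vertical axes, from 0) in each uric acid and untreated library (points, with 1 shape per library number) and the mean and SD of each group (black, n = 3). The groups are apart for Sox9 and Lmo4 and overlap for Hes1.

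Sox9 averaged 0.868 ± 0.12 FPKM with uric acid and 1.83 ± 0.156 FPKM untreated (SD, n = 3 each). It fell by 52.4%, a log2 fold change of -1.07 ± 0.17 (standard error; 95% interval -1.46 to -0.68), with an adjusted p of 0.00828 in edgeR's quasi-likelihood test with Benjamini-Hochberg adjustment over all tested features. Lmo4 averaged 10.2 ± 1.19 FPKM with uric acid and 6.16 ± 0.318 FPKM untreated (SD, n = 3 each), a 1.65-fold rise with a log2 fold change of 0.73 ± 0.12 (0.46 to 0.99) and an adjusted p of 0.00817 in the same edgeR fit. Hes1 averaged 8.29 ± 1.93 FPKM with uric acid and 9.62 ± 1.95 FPKM untreated (SD, n = 3 each), with a log2 fold change of -0.22 ± 0.20 and an adjusted p of 0.541 in edgeR. The 95% interval of Hes1 ran from -0.68 to 0.24, on both sides of 0. Sox9 and Lmo4 were thus called; over all tested features 7.98% were, 4.99% higher and 2.99% lower. Sox9 passed the filter, a mean of at least 1 FPKM over all libraries, through its untreated libraries alone, since each uric acid library was under 1 FPKM, so nothing is read from the number of genes called. The groups of Sox9 and Lmo4 did not overlap in FPKM, which was so for 31.0% of tested features (16.8% higher and 14.2% lower). In cultures measured in bulk, fewer cells with a transcript and less of it per cell cannot be told apart.

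The Lmo4 call was lost without untreated library 2 (adjusted p = 0.0546 at a log2 fold change of 0.72), and over the 16 alternative settings its adjusted p lay between 1.07e-06 and 0.0546. Sox9 passed in each of the 15 alternatives that tested it (3.84e-06 to 0.0409); its log2 fold change was -0.60 on the log2(FPKM + 1) scale, on which the changes of low genes are smaller.

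**Figure D2:**
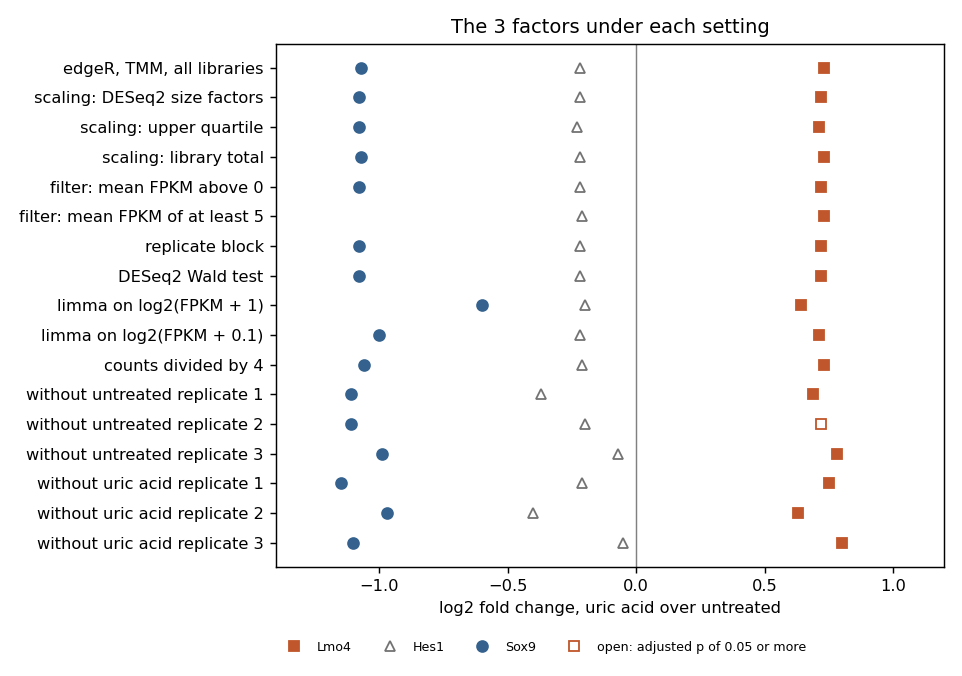
Log2 fold change, uric acid over untreated (horizontal axis), of Sox9, Hes1 and Lmo4 under the edgeR fit and the 16 alternatives (rows); open symbols mark an adjusted p of 0.05 or more. Lmo4 lies between 0.63 and 0.80 and Sox9 between -1.15 and -0.60, while Hes1 is drawn with open symbols in all settings.

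The 3 genes sat at different heights. By mean FPKM over the 6 libraries Sox9 was at percentile 3.93 of the tested features, Lmo4 at percentile 42.3 and Hes1 at percentile 45.2. Sox9 rested on 196, 126 and 171 estimated counts with uric acid and 430, 378 and 403 untreated. If every pair of reads added 4, these would be 49.0, 31.5 and 42.8 pairs with uric acid and 108, 94.5 and 101 pairs untreated. The order of Lmo4 and Hes1 differed between the groups. The ratio of Lmo4 to Hes1 in FPKM within a library was 1.19, 1.13 and 1.45 with uric acid, against 0.779, 0.616 and 0.57 untreated, so Lmo4 was the higher gene in all 3 uric acid libraries and Hes1 in all 3 untreated ones. The ratio of Lmo4 to Sox9 was 10.3, 15.7 and 10.2 with uric acid and 3.38, 3.53 and 3.24 untreated. Ratios within a library do not depend on how libraries are scaled and are given as values, with no test.

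Among the other SOX genes, 10 of 17 listed had a row and 3 were tested, and edgeR called 0 higher and 0 lower. Of all tested features 4.99% were higher and 2.99% lower. At an unadjusted p under 0.05 the SOX genes had 1 higher and 1 lower, and DESeq2 and limma called 0. Sox12, a relative of Sox4 in the SOXC group, held the most transcript, at 35.6, 30.9 and 37.7 FPKM with uric acid and 45.6, 44.9 and 37.8 FPKM untreated. Its log2 fold change was -0.30 ± 0.10 (adjusted p = 0.107, edgeR). Sox7, of the SOXF group and named after its values were seen, stood at 1.23, 1.04 and 1.29 FPKM with uric acid and at 0.931, 0.665 and 0.855 FPKM untreated (0.53 ± 0.20, adjusted p = 0.134). Sox7 passed the filter through its uric acid libraries, since each untreated library was under 1 FPKM. Duct and multipotent progenitor genes, the setting in which Sox9 is best known, gave 0 higher and 0 lower of 10 tested in edgeR (0 and 1 at an unadjusted p under 0.05, 0 and 1 with DESeq2, 0 and 0 with limma), with a median log2 fold change of -0.05 against 0.00 for all tested features; without uric acid library 3, 1 was lower. Of the 21 such genes with a row, 11 averaged under 1 FPKM. These included Onecut1, which acts early in the endocrine lineage and stood at 0.331, 0.0642 and 0.061 FPKM with uric acid and at 0.15, 0.124 and 0.1 FPKM untreated. The 6 duct markers with a row summed to 172 to 184 FPKM with uric acid and 189 to 193 FPKM untreated, nearly all of it from the keratin Krt7; Krt19, a defining duct keratin, was listed at 0 in 5 of the libraries. What share duct-like expression has in the Sox9 difference was not tested.

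Notch signalling feeds Hes1. Of 53 genes of the pathway besides Hes1, 49 had a row and 39 were tested, of which 3 were higher and 0 lower in edgeR (5 higher and 4 lower at an unadjusted p under 0.05; 5 and 1 with DESeq2, 3 and 0 with limma on log2(FPKM + 1)). Over all tested features, 4.99% were higher and 2.99% lower, so the share called in the pathway was near that of all features. The median log2 fold change was -0.03, against 0.00 for all features. The called count was 1 higher without untreated library 2, and 4 higher and 1 lower without uric acid library 3. Both of the larger rises were in TLE genes, whose proteins are the corepressors that HES proteins recruit. Tle3 stood at 7.54, 9.39 and 7.56 FPKM with uric acid and at 5.24, 4.77 and 4.48 FPKM untreated (log2 fold change 0.76 ± 0.11, adjusted p = 0.00542 in edgeR). Tle4 stood at 19.9, 19.0 and 18.7 FPKM with uric acid, against 14.0, 12.7 and 14.9 FPKM untreated (0.47 ± 0.08, adjusted p = 0.00831), a call lost without untreated library 2 (0.0527). Uric acid libraries of both TLE genes were above all untreated ones. Tle1 and Tle2 had log2 fold changes of 0.15 and 0.08 that did not pass. Neurl1, a ubiquitin ligase that acts on Notch ligands, rose by 0.28 ± 0.07 on the log2 scale (adjusted p = 0.0372). It passed in 9 of 16 alternatives, and its adjusted p with 1 library left out reached 0.183, without untreated library 2.

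Ligands and receptors did not pass the test. Of the 39 tested pathway genes, the groups were apart for 6 higher and 4 lower with uric acid, Notch1, Jag2 and Hes6 among the lower. Over all tested features the groups were apart for 16.8% higher and 14.2% lower. Jag2, the ligand with the most transcript, averaged 35.7 ± 0.562 FPKM with uric acid and 40.7 ± 2.67 FPKM untreated (SD, n = 3 each; log2 fold change -0.19, edgeR adjusted p = 0.111). An unnamed feature on the same strand overlaps Jag2, so the strand used in counting, which is not stated, could not tell them apart. Dll1 averaged 2.1 FPKM with uric acid and 1.74 FPKM untreated (0.27, adjusted p = 0.313), and Jag1 averaged 0.233 FPKM with uric acid and 0.257 FPKM untreated, under the filter. Notch1 was the 1 receptor tested. It stood at 2.43, 1.62 and 2.82 FPKM with uric acid and at 3.63, 3.48 and 2.99 FPKM untreated, a log2 fold change of -0.56 ± 0.18 (adjusted p = 0.0901 in edgeR). Notch1 passed with DESeq2 (0.0176) and without uric acid library 3 (0.034). Notch2 averaged 0.285 FPKM with uric acid and 0.268 FPKM untreated and Notch3 averaged 0.0204 FPKM with uric acid and 0.0318 FPKM untreated. Rbpj, the DNA-binding partner of the receptor fragment, averaged 11.5 ± 1.73 FPKM with uric acid and 13.1 ± 0.684 FPKM untreated (SD, n = 3 each; -0.19, adjusted p = 0.31, edgeR). Among relatives of Hes1, Hes6 had 26.3, 24.2 and 28.4 FPKM with uric acid and 29.6, 33.3 and 28.6 FPKM untreated (-0.22 ± 0.09, adjusted p = 0.169, edgeR). Hey1 averaged 0.951 FPKM with uric acid and 1.16 FPKM untreated (-0.29, adjusted p = 0.581, edgeR).

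**Figure D3:**
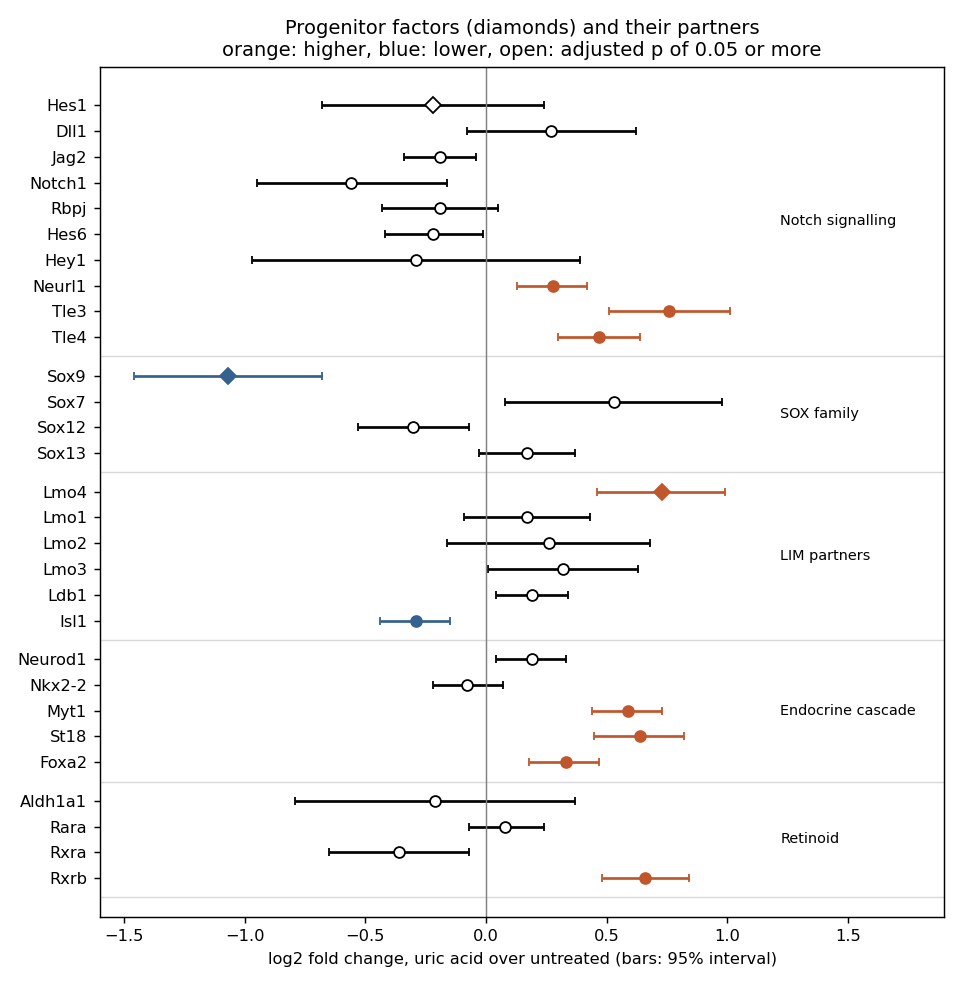
Log2 fold change, uric acid over untreated (horizontal axis, bars for the 95% interval), of Sox9, Hes1 and Lmo4 (diamonds) and genes of their families and pathways (circles), grouped by role; orange is higher, blue lower and open an adjusted p of 0.05 or more. Notch1 at -0.56 and Hes1 at -0.22 are open, while Tle3 at 0.76, Lmo4 at 0.73 and Sox9 at -1.07 are filled.

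A list of LIM and LDB genes and others chosen around LMO4 gave 0 higher and 1 lower of 16 tested in edgeR. Not all of these genes are partners of LMO4, and Ssbp1 is not. Over all tested features, 4.99% were higher and 2.99% lower. At an unadjusted p under 0.05 the list had 3 higher and 1 lower, and DESeq2 and limma each called 0 and 1. Its median log2 fold change was 0.11, against 0.00 for all features. Ldb1, the shared scaffold, stood at 88.5, 84.7 and 91.3 FPKM with uric acid and at 75.3, 75.4 and 81.0 FPKM untreated (0.19 ± 0.07, adjusted p = 0.111). The groups of Ldb1 were apart, though the gene did not pass. Of the other LIM-only genes, Lmo1 averaged 31.8 ± 5.0 FPKM with uric acid and 28.2 ± 1.13 FPKM untreated (SD, n = 3 each; 0.17, adjusted p = 0.389 in edgeR), and Lmo2 averaged 3.5 ± 0.709 FPKM with uric acid and 2.92 ± 0.302 FPKM untreated (0.26, adjusted p = 0.41 in edgeR, n = 3 each). Lmo1 thus held more transcript per length than Lmo4 in each library, and Lmo2 less. Isl1, a LIM-homeodomain factor of islet cells, was the member that fell, to 41.9, 40.4 and 41.7 FPKM with uric acid, against 53.3, 51.3 and 47.2 FPKM untreated (-0.29 ± 0.06, adjusted p = 0.0282). The adjusted p of Isl1 was above 0.05 when untreated 1 (0.101), untreated 2 (0.134) or uric acid 1 (0.107) was left out, and 0 genes were then lower. The 6 mesenchyme markers with a row summed to 83.0 to 94.3 FPKM with uric acid and 77.4 to 79.4 FPKM untreated, most of it from Thy1. Of these, 2 were tested and neither passed in edgeR (1 higher at an unadjusted p under 0.05). Thy1 had a log2 fold change of 0.16 (adjusted p = 0.205) and Pdgfra, named after its values were seen, 0.45 (adjusted p = 0.0501). An unnamed feature on the same strand overlaps Pdgfra. Of the defining collagen genes, which were under the filter, Col1a1 averaged 0.433 FPKM with uric acid and 0.788 FPKM untreated, and Col3a1 averaged 0.275 FPKM with uric acid and 0.393 FPKM untreated. Dcn averaged 0.0267 FPKM with uric acid, listed at 0 in 2 of those libraries, and 0.0491 FPKM untreated, and a part of such cells in the Lmo4 rise was not tested.

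In the endocrine cascade that runs from Neurog3, 3 genes rose and 2 fell of 19 tested, where 4.99% of all tested features were higher and 2.99% lower. At an unadjusted p under 0.05 in edgeR, 5 genes of the cascade were higher and 5 lower. The median log2 fold change was 0.02, against 0.00 for all features. Myt1, a zinc finger factor switched on in endocrine progenitors, stood at 32.8, 31.1 and 33.6 FPKM with uric acid, against 21.6, 20.8 and 22.5 FPKM untreated (log2 fold change 0.59 ± 0.07, adjusted p = 0.00163 in edgeR). Its paralogue St18 averaged 79.1 ± 3.66 FPKM with uric acid and 50.8 ± 5.56 FPKM untreated (SD, n = 3 each; 0.64 ± 0.08, adjusted p = 0.00264 in edgeR). Both MYT genes had every uric acid library above every untreated one and passed in 16 of 16 alternatives. Foxa2, a pioneer factor of endoderm, rose by 0.33 ± 0.06 (adjusted p = 0.0175), lost without untreated libraries 1 (0.0629) and 2 (0.103), which left 2 higher. The fallen genes were Isl1 and, named after its values were seen, Mnx1, a homeodomain factor of beta cells (-0.32 ± 0.07, adjusted p = 0.031). Leaving out those same libraries, untreated 1, untreated 2 or uric acid 1, left 0 genes of the cascade lower; the number was 1 without untreated 3 or uric acid 2, and 3 without uric acid 3. Neurod1, a direct target of NEUROG3, averaged 93.3 ± 3.94 FPKM with uric acid and 82.0 ± 3.66 FPKM untreated (SD, n = 3 each). Its log2 fold change was 0.19 (adjusted p = 0.107 in edgeR), and an unnamed feature on the same strand overlaps the gene. Nkx2-2, which beta cells need to form, averaged 94.2 FPKM with uric acid and 99.3 FPKM untreated (-0.08, adjusted p = 0.482), and Pax4, another factor of early beta cells, averaged 0.0761 FPKM with uric acid and 0.179 FPKM untreated, under the filter.

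Retinoid genes, the pathway of ALDH1A3, gave 1 higher and 0 lower of 13 tested in edgeR. Of all tested features 4.99% were higher and 2.99% lower. At an unadjusted p under 0.05 the retinoid genes had 1 higher and 2 lower, and DESeq2 and limma each called 1 and 0. Rxrb, a nuclear receptor that pairs with retinoic acid receptors, averaged 12.7 ± 0.894 FPKM with uric acid and 8.03 ± 0.256 FPKM untreated (SD, n = 3 each). Its groups were apart, and it rose by 0.66 ± 0.08 on the log2 scale (adjusted p = 0.00229), passing in 16 of 16 alternatives. Rara, a retinoic acid receptor, averaged 14.5 FPKM with uric acid and 13.7 FPKM untreated (0.08, adjusted p = 0.482). The sister enzymes of ALDH1A3 were low. Aldh1a1 stood at 1.77, 1.56 and 1.3 FPKM with uric acid and at 1.4, 1.47 and 2.48 FPKM untreated (-0.21, adjusted p = 0.644), and Aldh1a2 was listed at 0 in all uric acid libraries and at 0.0803, 0.056 and 0.0544 FPKM untreated. Other aldehyde dehydrogenase genes gave 0 higher and 0 lower of 9 tested in edgeR (1 and 0 at an unadjusted p under 0.05; 0 with DESeq2 and limma).

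Among other genes linked to dedifferentiation and immaturity, 2 rose and 1 fell of 13 tested, where 4.99% of all tested features were higher and 2.99% lower. At an unadjusted p under 0.05 in edgeR, 4 were higher and 3 lower. The list mixes genes that mature beta cells keep, such as Mafa, with genes of immaturity. Its median log2 fold change, -0.02, therefore cannot show a shift toward either state. Mycl, which encodes a MYC family transcription factor, stood at 18.7, 15.5 and 19.3 FPKM with uric acid, against 8.95, 9.28 and 10.7 FPKM untreated (log2 fold change 0.89 ± 0.11, adjusted p = 0.00235 in edgeR). Myc itself stood at 5.33, 9.77 and 3.73 FPKM with uric acid, against 1.52, 1.0 and 1.29 FPKM untreated (2.29 ± 0.33, adjusted p = 0.00537). Both had every uric acid library above every untreated one, and uric acid library 2, lowest for Mycl, was highest for Myc. Mafa, a factor of mature beta cells, was the gene that fell (-0.46 ± 0.08, adjusted p = 0.0129), lost without untreated library 1 (0.0564) or uric acid library 1 (0.071), which left 0 lower. Foxo1, whose loss lets mouse beta cells dedifferentiate under stress, averaged 11.6 ± 2.35 FPKM with uric acid and 12.8 ± 1.34 FPKM untreated (SD, n = 3 each; -0.15, adjusted p = 0.551 in edgeR). Of the 21 beta cell markers, 1 rose and 2 fell, Isl1 and Mafa, and the median was -0.05. At an unadjusted p under 0.05 in edgeR, 3 of these markers were higher and 6 lower. The marker that rose was Ucn3, a peptide of mature beta cells named after its values were seen (0.50, adjusted p = 0.0296), and 0 were higher when any 1 of the untreated libraries was left out. The number of markers lower was 0 without untreated 1 or uric acid 1, and 1 without untreated 2.

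**Figure D4:**
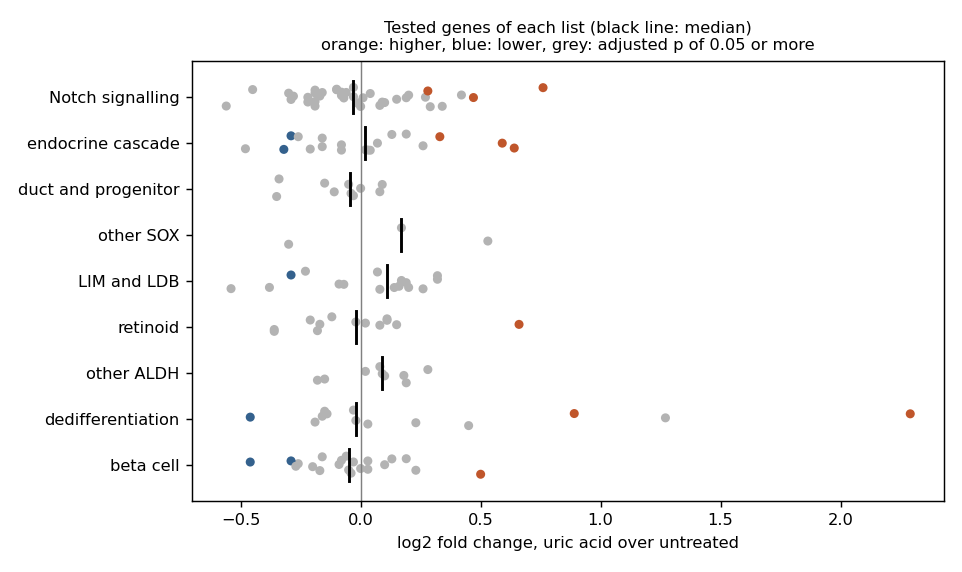
Log2 fold change, uric acid over untreated (horizontal axis), of the tested genes of 9 lists (points; the Notch lists are pooled, lists of other cells' markers are not drawn, and Sox9, Hes1 and Lmo4 are left out) with each list's median (black line); orange is higher, blue lower and grey an adjusted p of 0.05 or more. The medians of these 9 lists lie between -0.05 and 0.17. The dedifferentiation list mixes genes of mature and of immature beta cells, so its median cannot show a shift toward either state.

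Among 10932 tested features with a settled symbol, the pattern most like Sox9 over the 6 libraries was that of Hnrnpd, an RNA-binding protein gene (Pearson's r = 0.9968 between log2 CPM values, CPM being counts relative to the total of each library), and then Bud23, a methyltransferase of the small ribosomal subunit (0.9955). Hnrnpd averaged 120 FPKM with uric acid and 153 FPKM untreated, and Bud23 12.7 FPKM with uric acid and 19.0 FPKM untreated, with log2 fold changes of -0.35 and -0.58. The nearest to Lmo4 were Slc38a7, a lysosomal glutamine transporter (0.9988), which averaged 9.15 FPKM with uric acid and 5.8 FPKM untreated, and Ppp2r2a, a phosphatase subunit (0.9984), at 17.7 FPKM with uric acid and 14.7 FPKM untreated. The nearest to Hes1 were Ppp1r2, a phosphatase inhibitor (0.9922), and Cox16, an assembly factor of cytochrome oxidase (0.9922), which like Hes1 did not pass the test. These are the best of many over 6 libraries that differ in group and depth, and r above 0.95 was reached with Lmo4 by 433 features, with Sox9 by 184 and with Hes1 by 53. With each library set against its group's mean, the nearest to Hes1 were the ribosomal protein genes Rpl29 (0.9994) and Rpl27 (0.9989), and the nearest to Lmo4 were Rpl19, also of the ribosome (0.9996), and Rnaset2, a ribonuclease (0.9992). Cbr1, a carbonyl reductase gene, was among the nearest to Sox9 (0.9913). Set against group means in this way, r above 0.95 was reached with Lmo4 by 409 features, with Hes1 by 311 and with Sox9 by 47. Of the gene ontology terms in the table, Sox9 carried 151, Hes1 91 and Lmo4 18, and positive regulation of transcription by RNA polymerase II, held by 617 tested features, was the 1 term all 3 shared. Sox9 and Hes1 both carried the Notch signaling pathway term, with 52 tested features, and cell fate commitment, with 17.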

How the data were processed

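Messenger RNA caught on oligo(dT) beads was made into libraries that mark the second strand with dUTP and read as pairs of 150 bases, per the labels' protocols. DESeq2, edgeR, StringTie 1.3.4d, HISAT2 2.0.4 and cutadapt 1.9 appear in the submitters' processing notes without their roles; genome build and counting strand are not given in the sources used here. The deposited table gives, per the file headers, FPKM scaled by the authors to transcript length and library total, and an estimated count for each library. The deposited estimated counts were close to covered bases divided by 75: among 4482 small-RNA values, 57.2% of the counts implied by FPKM were whole bases (tolerance 0.05; 10% by chance).

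The two-sided quasi-likelihood test of edgeR 4.0.16 (R 4.3.3, TMM scaling) took features whose FPKM averaged 1 or more, on the estimated counts rounded to whole numbers, with an adjusted p under 0.05 as threshold; genes under the filter have values only. The biological coefficient of variation was 0.127 and library totals were 41191819 to 59092982 estimated counts. The fit was tested on simulated data. Alternatives were scaling, filter, replicate block, DESeq2 1.42.0, limma 3.58.1 on log2(FPKM + 1) and log2(FPKM + 0.1), counts divided by 4, and each library left out. The members and the 19 lists (248 genes, 206 in the table) were chosen with earlier results of these data known. The text names all members, fixed partners, up to 4 called genes of each list with the smallest p, and the 2 nearest patterns of each member, except some results that are not reported here; others are said to be named after their values were seen or are markers. Crabp2 has a pair of rows, and the first was used. Promoters come from RefSeq, which held Hes1 and Lmo4.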

Additional observations from a re-analysis of the deposited data

How the results depend on the processing

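Sox9, Lmo4 and Hes1 kept their direction in every alternative that tested them. Sox9 was not tested with a minimum mean of 5 FPKM, so 1 of the 3 genes was then called. With 1 library left out, 1 to 2 of the 3 genes were called, and the log2 fold change of Lmo4 was 0.63 to 0.80, that of Sox9 -1.15 to -0.97 and that of Hes1 -0.40 to -0.05. Over all features, 622 were higher and 372 lower; with DESeq2 these were 968 and 785, with the replicate block 223 and 99, and with 1 library left out 165 to 707 and 66 to 466, from fits with fewer libraries; otherwise the cause was not tested. Same-numbered libraries did not deviate together (r = 0.0684, -0.0492 and -0.19 for numbers 1, 2 and 3, over genes), and not every library correlated best with its own number, so the numbers were not taken as pairs. In the fit with the replicate block the adjusted p was 0.0321 for Sox9, 0.0365 for Lmo4 and 0.59 for Hes1, and Neurl1, Foxa2, Isl1, Mnx1 and Ucn3 missed the threshold, which left 0 lower in the endocrine cascade and among LIM and LDB genes; beta cell markers had 0 higher and 1 lower. The block changed no other call in the lists described. DESeq2 called 4 lower in the endocrine cascade, 4 higher among dedifferentiation genes and 4 lower among beta cell markers, and the 5 FPKM minimum left 1 higher among dedifferentiation genes. Aldh1a1, not called in any fit, had a log2 fold change of 0.11 without untreated library 3 and of -0.36 to 0.11 over all alternatives. Depth limits the genes under 1 FPKM.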

Other observations

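The tested genes nearest to the 3 factors on their chromosomes, chosen after the data were seen, did not pass the test. Sox9 lies far from other tested genes. Slc39a11, a zinc transporter gene 461 kb after it in the deposited coordinates, averaged 13.2 FPKM with uric acid and 12.4 FPKM untreated (log2 fold change 0.09, edgeR adjusted p = 0.643). Kcnj2, a potassium channel gene 1850 kb before Sox9, averaged 2.75 FPKM with uric acid and 1.76 FPKM untreated, with every uric acid library above every untreated one (0.64, adjusted p = 0.0511). Beside Hes1, Atp13a3, a polyamine transporter gene at 349 kb, averaged 3.04 FPKM with uric acid and 5.87 FPKM untreated (-0.94, adjusted p = 0.0674), and Opa1, a mitochondrial fusion gene at 405 kb, averaged 18.3 FPKM with uric acid and 20.3 FPKM untreated (-0.15, adjusted p = 0.316). Beside Lmo4, Hs2st1, a heparan sulfate sulfotransferase gene at 226 kb, averaged 9.73 FPKM with uric acid and 10.5 FPKM untreated (-0.12, adjusted p = 0.367).

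Bach2, a transcription factor linked to beta cell dedifferentiation in human diabetes, was named after its values were seen. It was under the filter and was not tested. It stood at 0.342, 0.271 and 0.462 FPKM with uric acid and at 0.611, 0.654 and 0.622 FPKM untreated. Every uric acid library was thus below every untreated one, which was so for 14.2% of tested features, all of them above the filter. The share among features as low as Bach2 was not computed. Ldha, a gene that mature beta cells hold low, stood at 2.55, 2.34 and 0.638 FPKM with uric acid and at 0.688, 0.901 and 0.689 FPKM untreated (log2 fold change 1.27, edgeR adjusted p = 0.113). Uric acid library 3 of Ldha lay below all untreated libraries, while uric acid libraries 1 and 2 lay above them. Ldha, also named after its values were seen, passed the filter through uric acid libraries 1 and 2 alone, since each untreated library was under 1 FPKM.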
